A study of Nannospalax ehrenbergi and Mus musculus with 25 samples.

Results

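Cyclin D1 (Ccnd1), cyclin D2 (Ccnd2), their kinase Cdk6, the CDK inhibitors Cdkn2a, Cdkn2b, Cdkn2c and Cdkn1b, and the retinoblastoma family Rb1, Rbl1 and Rbl2 were followed across RNA-seq libraries of Spalax, the blind mole rat, and of mouse after exposure to the carcinogen 3-methylcholanthrene (3MCA). These 10 genes were chosen by their names and not by a rule on their values, although earlier results of these data were known. All 10 were found among the 47593 genes listed for mouse and 9 of them among the 27988 listed for Spalax. Cdkn2a was analysed in mouse only, since no row of that name was found for Spalax.

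There were 25 libraries, each from 1 side of the neck of 1 animal. Spalax gave 4 untreated controls, 4 injected animals without a tumor (tolerant, injected side), 2 animals with a granuloma and 2 with a fibrosarcoma. Mouse gave 3 untreated controls and 3 animals with a fibrosarcoma. From each tumor-bearing animal both the injected side (IS), which is the tumor, and the uninjected side (UIS), which is neck muscle, were sequenced. The Spalax were wild-caught animals, and the treated ones received a single subcutaneous dose of 1 mg 3MCA in 500 µl. The paper estimates the treated animals at 2 to over 10 years. The submitters' notes name 1 set of Spalax of about 2 years and another of 10 years or older. No age of a single animal was used here. The mice were C57BL/6 males of 3 to 4 months and received 200 µg in 200 µl. Tissue was taken 14 and 16 months after injection for granuloma, 18 and 30 months for fibrosarcoma and for tolerant Spalax, and 11 to 14 weeks for mouse. All Spalax controls were female and 3 of the 4 tolerant animals male. Both granuloma animals (600 and 976) were female. Of the fibrosarcoma animals, 2240 was female and sampled at 18 months, and 2230 was male and sampled at 30 months. Control and tolerant libraries carried dual indices and all tumor-bearing ones a single index, so a tumor-bearing animal's muscle and its index type cannot be told apart when it is compared with control or tolerant muscle.

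D-type cyclins carry growth signals into the cell cycle. They bind and activate Cdk4 and Cdk6, and these kinases phosphorylate the pocket proteins Rb1, Rbl1 (p107) and Rbl2 (p130), which otherwise hold back E2F transcription factors and the S-phase genes that E2Fs drive. INK4 inhibitors (Cdkn2a, Cdkn2b, Cdkn2c) bind Cdk4 and Cdk6 directly, while the KIP inhibitor Cdkn1b (p27) binds cyclin-CDK complexes. Adult muscle fibers have left the cell cycle, and Rb1 and Rbl2 are known for their role in resting and differentiated cells.

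Cdkn2a is the one gene here whose single count stands for different proteins. In GENCODE vM21 (GRCm38, the build named in the submitters' notes) it lies on chromosome 4, from 89274471 to 89294653 on the minus strand, and Cdkn2b lies beside it from 89306299 to 89311039. One transcript, Cdkn2a-201, starts in the exon from 89281986 to 89282192 and encodes p16Ink4a. The other, Cdkn2a-202, starts in the exon from 89294334 to 89294653 and encodes p19Arf, which acts on the p53 pathway through Mdm2. Both then use the same exon from 89276645 to 89276985, read in different frames. The last 40 bases of each first exon are shown in lower case and the first 40 bases of the shared exon in capitals, to make plain which reads can belong to either product.
Cdkn2a-201: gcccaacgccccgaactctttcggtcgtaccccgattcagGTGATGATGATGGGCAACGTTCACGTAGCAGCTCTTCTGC
Cdkn2a-202: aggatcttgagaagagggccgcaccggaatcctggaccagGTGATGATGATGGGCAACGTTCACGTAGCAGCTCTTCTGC
The lower-case parts differ and the capitals are identical, so a count per gene does not separate p16Ink4a from p19Arf.

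Values are normalised read counts, that is, reads per gene divided by 1 size factor per library. Recovered whole reads came to between 17025447 and 23386729 per Spalax library and between 22143060 and 31179183 per mouse library. Differences are on the scale of log2(value + 1), with the standard error (SE) of the fit. Differential expression was tested with limma across all genes that reached a value of 10 in enough libraries to fill the smaller group. A gene is called where its Benjamini-Hochberg adjusted p, over all genes tested, is at most 0.05. The muscle label held in the 18 muscle libraries, where the 8 of 11 skeletal muscle markers listed for Spalax summed to between 802475 and 3241420 and the 11 of mouse to between 1155350 and 4321210. In the tumors, whose tissue label is also muscle, the same sums were 132 to 3041 in Spalax and 106 to 57420 in mouse. A few muscle libraries stood apart and are named beside the results they touch: tolerant 2251, granuloma UIS 976, and mouse UIS 1019 and 512.

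Both D-type cyclins were far higher in tumors than in the muscle of the opposite side. Ccnd1 stood at 1053 and 407 in the granulomas of animals 600 and 976, against 18.1 and 3.53 in their uninjected muscle. In the fibrosarcomas of animals 2240 and 2230 it stood at 524 and 157, against 31.5 and 29.9. Every Spalax tumor was above both uninjected sides of its type, with no overlap. The difference was 6.14 (SE 0.95, adjusted p = 0.0147) in granuloma and 3.18 (SE 0.69, adjusted p = 0.0285) in fibrosarcoma. In granuloma the gene reached the filter only through the tumors and had to differ to be tested. In mouse Ccnd1 reached 6489, 10112 and 5033 in the tumors of animals 1019, 1023 and 512, against 851, 122 and 36.0 in their uninjected muscle. That is a difference of 5.46 (SE 1.07, limma adjusted p = 0.00892), again without overlap. Here and below, the share of all genes without overlap is not given.

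Ccnd2, a close relative that also activates Cdk4 and Cdk6, followed Ccnd1 less evenly. The granulomas of 600 and 976 held 835 and 519 against 18.1 and 1.18 in the uninjected muscle, a difference of 6.68 (SE 1.15, adjusted p = 0.0179, limma). In granuloma Ccnd2, too, reached the filter only through the tumors. The fibrosarcomas of 2240 and 2230 held 819 and 73.2, against 14.5 and 14.2. These fibrosarcomas differed from each other more than 10-fold, and the difference of 4.00 (SE 1.23) missed the threshold with a limma adjusted p of 0.0641. It passed with the animal as a block (adjusted p = 0.0348) and with edgeR and DESeq2. Mouse tumors held 2987, 6694 and 3603 against 637, 311 and 157, a difference of 3.72 (SE 0.56, adjusted p = 0.00411).

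Per length, Ccnd1 was the more abundant D cyclin in mouse tumors. Over exonic lengths of 4709 bases for Ccnd1 and 9409 for Ccnd2 in GENCODE vM21, Ccnd1 had a median level of 1378 normalised reads per kilobase in the 3 tumors and Ccnd2 383. In the mouse controls the order was the other way, with medians of 37.8 for Ccnd1 and 63.0 for Ccnd2, although the ranges (13.7 to 51.4 and 49.6 to 90.9) came close to each other and overlapped slightly. How the strand was set in counting is not stated, and 1100 exonic bases of Ccnd1 and 740 of Ccnd2 overlap exons on the opposite strand.

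Cdk6, the catalytic partner of the D cyclins, gave the widest contrast between replicates among the 10 genes. In the 12 Spalax muscle libraries it lay between 2.68 and 23.3. The granulomas of 600 and 976 held 206 and 189.7, and the difference from their uninjected muscle (3.62 and 5.89) was 5.14 (SE 0.69, adjusted p = 0.0109, limma). The fibrosarcoma of 2240 held 7499, whereas that of 2230 held 19.2, inside the range of Spalax muscle. With such spread the fibrosarcoma difference of 5.96 had an SE of 2.88 and was not called (limma adjusted p = 0.171), although DESeq2 called it. Without the tumor of 2240 the difference was 1.69. In both Spalax tumor types Cdk6 reached the filter only through the tumors. In mouse the tumors were close to one another at 1987, 2497 and 2244, against 284, 166 and 86.4 in uninjected muscle, a difference of 3.80 (SE 0.44, adjusted p = 0.00223).

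The genes that flank Cdk6 on mouse chromosome 5 were also highest in the fibrosarcoma of 2240. They were looked up after the Cdk6 value had been seen, so the following is a description without a test. Of 15 protein-coding genes within 2.5 Mb of mouse Cdk6 (chromosome 5, 3341485 to 3531008, plus strand) that the Spalax table lists by the same name, 12 were higher in this tumor than in any of the other 15 Spalax libraries and 9 at least 5 times so. Ankib1 stood at 35014 against at most 1288 elsewhere, Krit1, a gene mutated in cerebral cavernous malformation, at 25962 against at most 1275, and the Wnt receptor gene Fzd1 at 27764 against at most 1865. The 9 genes are the nearest ones in order, out to Fzd1 at 1223 kb in mouse. The next gene, Cdk14, stood at 326, inside the range of the others. The uninjected side of the same animal held 783 for Ankib1 and 1029 for Krit1, within the range of the other libraries. DNA copy number was not measured, and the order of these genes in Spalax was not checked here.

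**Figure D1:**
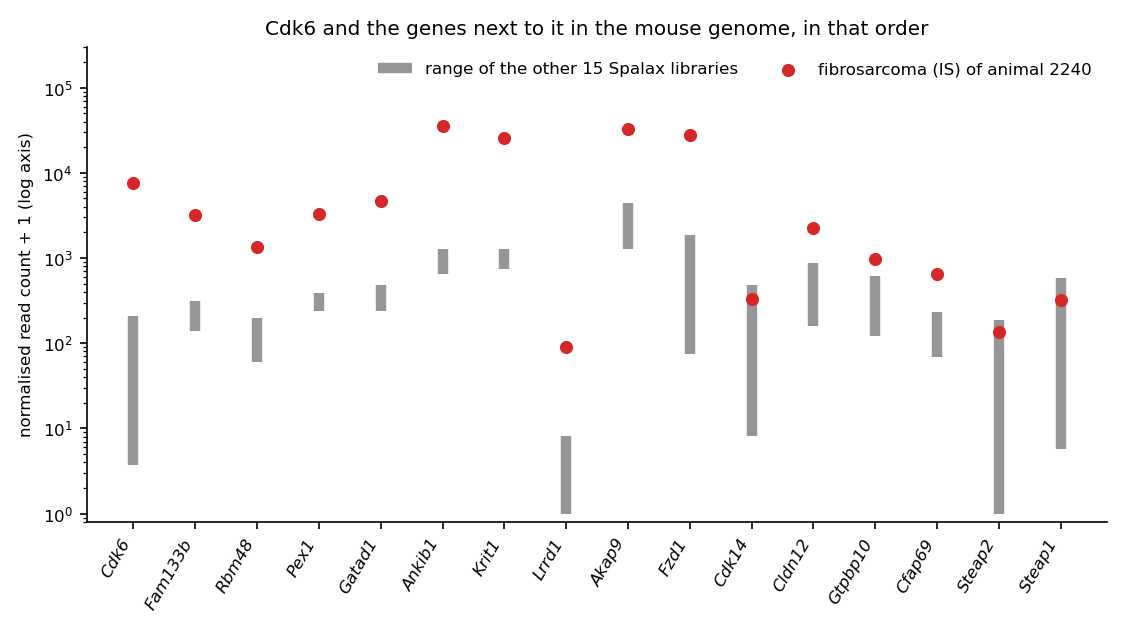
Normalised read count + 1 (log axis) of Cdk6 and 15 genes within 2.5 Mb of it in mouse, in mouse order from left to right. Red points are the fibrosarcoma of Spalax 2240 and grey bars span the other 15 Spalax libraries. From Cdk6 to Fzd1 every red point lies above its bar, and at Cdk14 it lies inside.

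**Figure D2:**
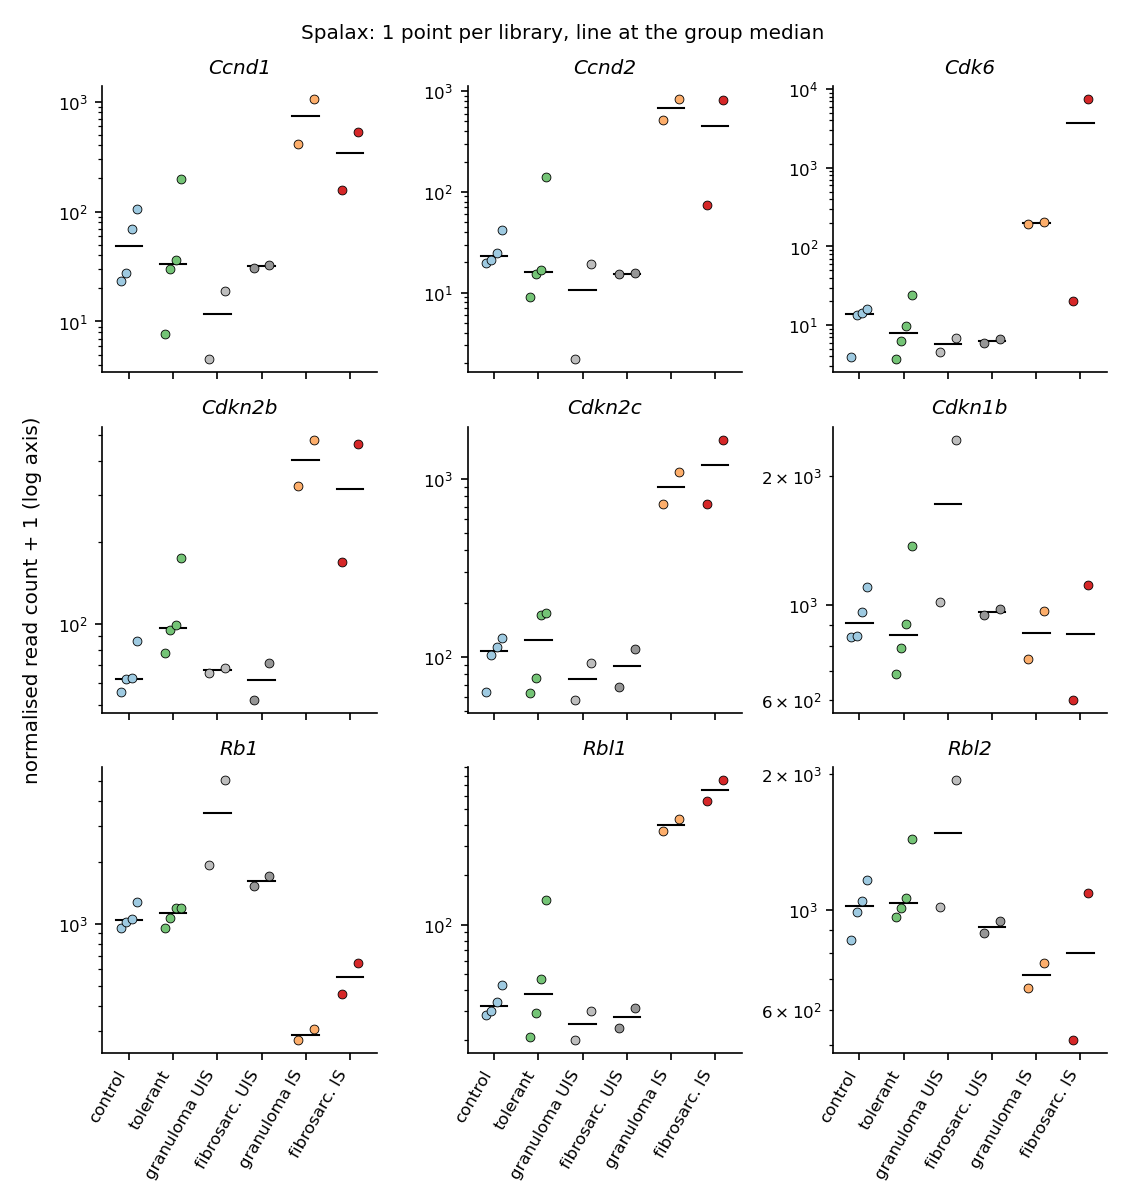
Normalised read count + 1 (log axis, scaled per panel) of the 9 genes in the 16 Spalax libraries, 1 point per library with a line at the group median. Points of Ccnd1, Ccnd2, Cdkn2b, Cdkn2c and Rbl1 lie higher in granuloma IS and fibrosarcoma IS than in the UIS of the same animals, those of Rb1 lie lowest, and the Cdk6 points of the fibrosarcomas lie at 7499 and 19.2.

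The INK4 inhibitors were higher in tumors than in uninjected muscle as well. Within each Spalax pair the tumor with more Ccnd1 held less Cdkn2b and Cdkn2c. Mouse tumors went the other way: that of 1023, with the most Ccnd1 (10112), also held the most Cdkn2b (1116) and Cdkn2c (1068). A relation between Ccnd1 and these inhibitors across tumors was not tested. Cdkn2b (p15), a target of TGF-beta signaling, held 323 and 479.7 in the granulomas of 600 and 976, against 67.5 and 64.8 in uninjected muscle, a difference of 2.56 (SE 0.51, adjusted p = 0.0245, limma). The fibrosarcomas of 2240 and 2230 held 168 and 460.0 against 70.3 and 51.2. That difference of 2.20 (SE 0.62) was just short of the threshold at a limma adjusted p of 0.0521, and edgeR and DESeq2 called it. In mouse tumors Cdkn2b held 506, 1116 and 442 against 102, 21.7 and 7.20, a difference of 4.56 (SE 0.94, adjusted p = 0.0102). None of these groups overlapped. In mouse Cdkn2b reached the filter only through the tumors.

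Cdkn2c (p18) rose by a similar amount in both Spalax tumor types. The granulomas held 723 and 1090.0 against 91.7 and 56.5 in the uninjected muscle of 600 and 976, a difference of 3.61 (SE 0.50, adjusted p = 0.0117, limma). The fibrosarcomas of 2240 and 2230 held 719 and 1664 against 66.7 and 109, a difference of 3.66 (SE 0.54, adjusted p = 0.0118). In mouse the uninjected sides held 430.5, 441 and 504 and the tumors 688, 1068 and 686. These values are not on one scale with those of Spalax, since size factors were set within each species. The mouse difference was 0.80 (SE 0.26, adjusted p = 0.0474), and the call was lost with the animal as a block (adjusted p = 0.0800), with edgeR (adjusted p = 0.0561) and without any 1 of 5 of the 6 libraries. Mouse controls, at 1688, 588 and 1023, overlapped the mouse tumors.

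The difference between species was itself tested for the 9 genes in both tables, as an interaction of side and species over the fibrosarcomas. Cdkn2c was the one gene called: its tumor difference was larger in Spalax by 2.87 (SE 0.58, limma adjusted p = 0.0341), where 3.95% of all 11085 genes tested were called. With the animal as a block the adjusted p was 0.0648, and leaving out single libraries moved the value between 2.26 and 3.47 and lost the call for 7 of 10 libraries. For Rbl1 the interaction was 1.65 (SE 0.57, adjusted p = 0.139) and for Cdkn2b -2.37 (SE 1.36, adjusted p = 0.355). DESeq2 called Rbl1 and Cdk6 as well, at 15.4% of all genes called. Cdk6 in Spalax and Cdkn2b in mouse reached the filter for this comparison only through the tumors. Leaving out single libraries moved the limma value of Cdk6 between -2.10 and 6.43. Library size factors were set within each species, and the genes of the species are matched by name only.

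Cdkn2a was nearly silent in mouse muscle and strong in mouse tumors. The controls held 4.07 normalised reads in M1 (5 reads) and none in M2 and M5. Uninjected muscle held 688, 11.3 and 8.64 in animals 1019, 1023 and 512, and the tumors 3699.7, 7789 and 3107. All tumors were above all muscle libraries, and the difference from the uninjected sides was 6.69 (SE 1.60, limma adjusted p = 0.0168). Cdkn2a reached the filter only through the tumors and had to differ to be tested. The call rested on the setting: it was lost with edgeR (adjusted p = 0.0788) and when uninjected side or tumor of 1023 was left out (adjusted p = 0.0542 and 0.0594). Without uninjected side 1019 the difference was 8.68. Per kilobase of exon the tumor median of Cdkn2a was 3157 normalised reads, above that of Cdkn2b at 364 and Cdkn2c at 256. Controls and uninjected sides were not tested against each other for Cdkn2a, which missed the filter there.

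The uninjected side of mouse 1019, which held the 688 of Cdkn2a, was also the highest of its group in Ccnd1, Ccnd2, Cdk6, Cdkn2b and Rbl1. Its 6 proliferation markers (Mki67, Top2a, Ccnb1, Cdk1, Aurkb, Plk1) summed to 1400.3, against 98.0 and 36.0 in the other uninjected sides, 47.2 to 111 in controls and 12293 to 16265 in the tumors. Its fibroblast sum of 39635 (15651 and 5793 in the others) and its leukocyte sum of 3659 (1872 and 341) were the highest of the group too, while its muscle marker sum of 3044660 lay between those of the others. The part of tumor cells or of other dividing cells in this library was not tested.

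**Figure D3:**
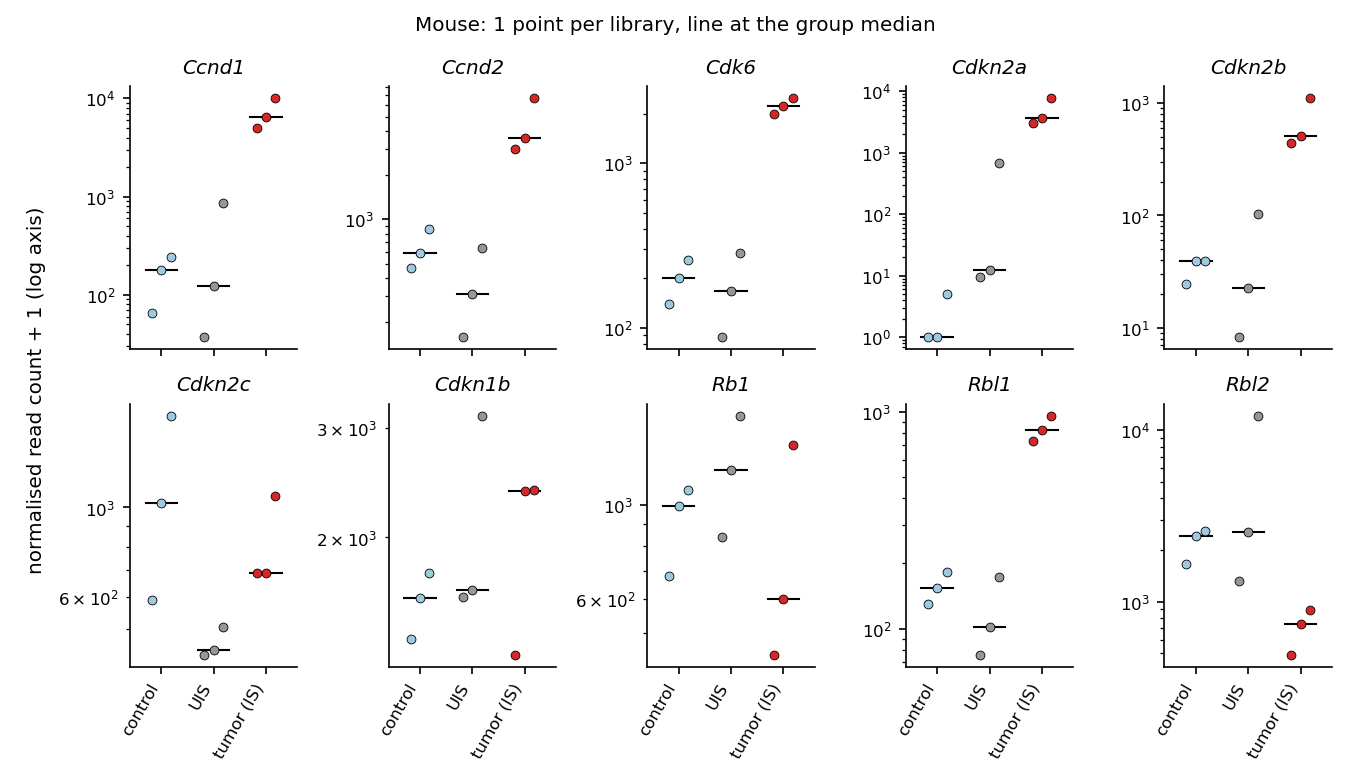
Normalised read count + 1 (log axis, scaled per panel) of the 10 genes in the 9 mouse libraries, 1 point per library with a line at the group median. Ccnd1, Ccnd2, Cdk6, Cdkn2a, Cdkn2b and Rbl1 are highest in the tumors without overlap, and the highest uninjected side of Cdkn2a (688) is that of animal 1019. The share of all genes without overlap is not given.

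Cdkn1b, by contrast, was abundant in every library and was called nowhere in the main test. It held between 689 and 2425 in Spalax muscle and between 600.0 and 1112 in Spalax tumors. The differences were -0.88 (SE 0.51) in granuloma and -0.23 (SE 0.37) in fibrosarcoma, with limma adjusted p of 0.244 and 0.647, and the latter turned to 0.57 under scaling to total reads. Mouse tumors held 1292 to 2382 and uninjected sides 1603 to 3146, a difference of -0.06 (SE 0.38, adjusted p = 0.910). When reads were scaled to library totals, a step that moved the median of all genes in mouse from 0.11 to 1.16, Cdkn1b was 1.01 higher in mouse tumors (adjusted p = 0.0268), which is below that median.

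The pocket proteins went separate ways. Rb1 fell in Spalax tumors: granulomas held 269 and 305 against 1934 and 5034 in the uninjected sides of 600 and 976, a difference of -3.44 (SE 0.53, adjusted p = 0.0145, limma). Fibrosarcomas held 644 and 456 against 1720.3 and 1534 in 2240 and 2230, a difference of -1.58 (SE 0.28, adjusted p = 0.0169). The fibrosarcoma call was lost under scaling to total reads, with a difference of -0.77 and an adjusted p of 0.0767. Spalax controls (960.0 to 1283) lay between tumors and uninjected sides. In mouse Rb1 was 598, 442 and 1381 in tumors and 838, 1209 and 1624 in uninjected sides. The groups overlapped and the difference of -0.72 (SE 0.48) was not called (adjusted p = 0.253). Under scaling to total reads it turned to 0.34.

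Rbl1, the pocket protein gene that is itself an E2F target, rose in every tumor group. Granulomas held 371 and 434 against 28.9 and 18.8 in 600 and 976, a difference of 4.04 (SE 0.57, adjusted p = 0.0122, limma). Fibrosarcomas held 752 and 558 against 30.3 and 22.7 in 2240 and 2230, a difference of 4.57 (SE 0.40, adjusted p = 0.00459). Mouse tumors held 959, 820.3 and 732 against 172, 101 and 74.9, a difference of 2.92 (SE 0.37, adjusted p = 0.00271). This gene was called in all 3 tumor groups and under each of the other tests and scalings run on them. Leaving out either granuloma, or either uninjected side of the fibrosarcoma animals, cost it the call.

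Rbl2 was not called in any tumor group. Granulomas held 668 and 761 against 1014 and 1939.7, and fibrosarcomas 511 and 1088 against 941 and 889, the latter overlapping. The differences were -0.98 (SE 0.43) and -0.29 (SE 0.42), with limma adjusted p of 0.149 and 0.621, and the latter turned to 0.51 under scaling to total reads. Mouse tumors held 893, 737 and 488, all below the uninjected sides at 1314, 2550.5 and 12129. The difference of -2.33 (SE 0.79) stopped just short of the threshold (adjusted p = 0.0507), and edgeR and DESeq2 called it (adjusted p = 0.0334 and 0.00114). The 12129 came from animal 512, far above the mouse controls at 1661 to 2566. Without that library the difference was -1.42 and was called (adjusted p = 0.0379, limma). In mouse tumors the median level per kilobase of Rb1, Rbl1 and Rbl2 was 99.4, 137 and 97.6, whereas in controls it was 165, 25.6 and 318.

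**Figure D4:**
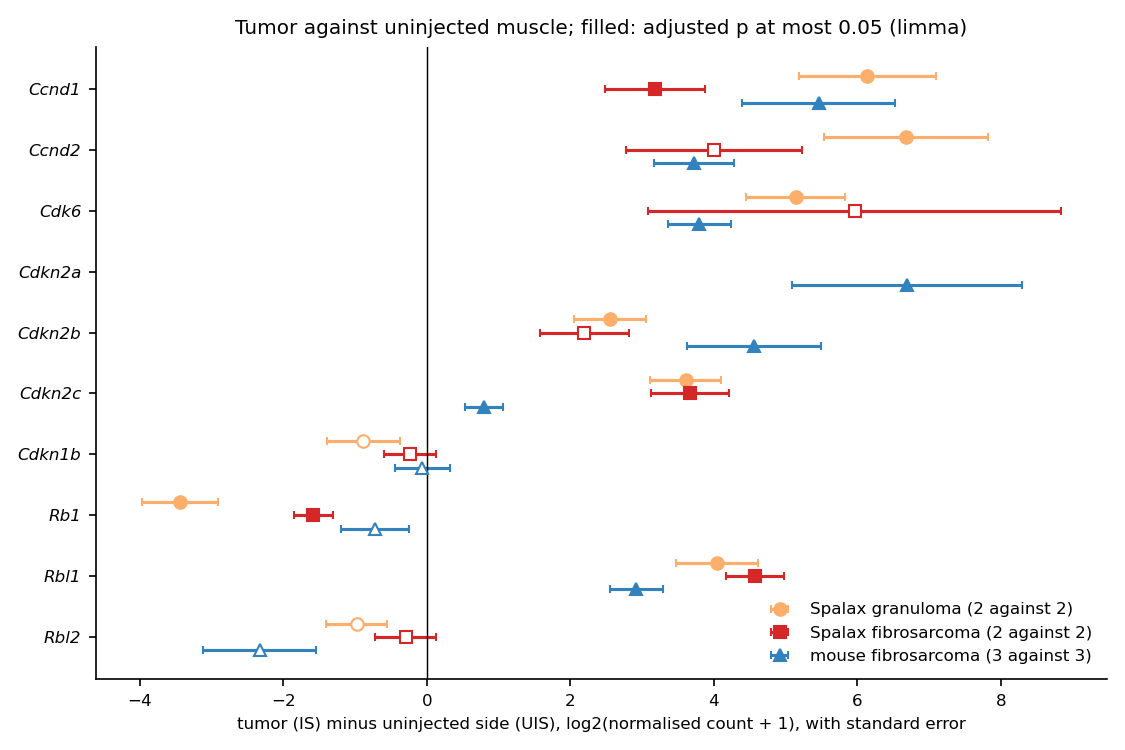
Difference of tumor (IS) minus uninjected side (UIS) in log2(normalised count + 1), with bars of 1 standard error, for each gene in Spalax granuloma, Spalax fibrosarcoma and mouse fibrosarcoma. Filled symbols have a limma adjusted p of at most 0.05. Rb1 and Rbl1 lie on opposite sides of 0 in each tumor group, and the open Cdk6 symbol of Spalax fibrosarcoma carries the widest bar.

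Counted by comparison, 6 of the 9 genes rose and 1 fell in granuloma, where 11.7% of all 14735 genes tested were called higher and 12.6% lower. In fibrosarcoma 3 rose (Ccnd1, Cdkn2c, Rbl1) and Rb1 fell, against 17.4% and 19% of 14696 genes. With both Spalax tumor types pooled, 4 libraries against 4, Ccnd1, Ccnd2, Cdk6, Cdkn2b, Cdkn2c and Rbl1 rose and Rb1 fell, against 26.1% and 26.5% of 14431. In mouse 7 of 10 rose (Ccnd1, Ccnd2, Cdk6, Cdkn2a, Cdkn2b, Cdkn2c, Rbl1) and none fell, against 22.8% higher and 22.3% lower of 15220. In mouse 1 further gene, Rbl2, was lower at an unadjusted p under 0.05. The median difference of the genes was 3.61, 3.18, 3.63 and 3.32 in these 4 comparisons, beside -0.01, 0.03, 0.01 and 0.11 over all genes tested. Some genes reached the filter only through the tumors and had to differ to be tested. These were Ccnd1, Ccnd2 and Cdk6 in granuloma and in the pooled Spalax tumors, Cdk6 in Spalax fibrosarcoma, and Cdkn2a and Cdkn2b in mouse. The same held in the species interaction for Cdk6 in Spalax and Cdkn2b in mouse. With 2 libraries a side the counts were fragile. In granuloma and in Spalax fibrosarcoma they changed whichever library was left out. How many of all genes were called in those refits is not given here, so the changes cannot be read as particular to these genes. Pooled, the count stayed at 7 whichever library was left out.

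Tumors and muscle differ in their cells. The 8 fibroblast markers, collagen genes among them, summed to between 180672 and 1909780 in Spalax tumors and 16663 to 47380 in the uninjected sides. Macrophage and leukocyte markers (7 of 8 in the Spalax table) summed to 6683 to 19224 against 988 to 2684. Among them Cd79a was lower in the tumors, at 6.15 to 32.0 against 61.5 to 155. In mouse the fibroblast sums were 168304 to 197644 against 5793 to 39635, and the leukocyte sums 4662 to 27985 against 341 to 3659. Within the fibroblast list, 6 of 8 genes rose in granuloma, 3 in Spalax fibrosarcoma and 5 in mouse. Dcn was not called in any of them (1.22, -0.31 and 0.12), and Thy1 differed by -2.50 (adjusted p = 0.0543, limma) in granuloma but rose in mouse (4.74). The 3 satellite cell markers summed to at most 10.9 in Spalax tumors, and Pax7 was at 0 in both granulomas. In bulk tissue fewer cells of a type and less RNA per cell cannot be told apart, and the part of this change of cells in the differences above was not tested.

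Granuloma and fibrosarcoma did not differ in these genes beyond the spread of 2 libraries each. Limma called 0 of 9 between the tumors, and 0% of all 14562 genes. None of the 9 had an unadjusted p under 0.05, where 4.06% of all genes did. EdgeR and DESeq2 also called 0 of 9, with Cdk6 alone under an unadjusted 0.05 in DESeq2. The nearest was Rb1, with 644 and 456 in fibrosarcoma above 269 and 305 in granuloma, a difference of 0.92 (SE 0.36, adjusted p = 1.00). The interaction of side and tumor type called 0 of 9 by limma, edgeR and DESeq2, and limma called 0% of all 15584 genes. For Rb1 the interaction was 1.86 (SE 0.65, unadjusted p = 0.0233, limma adjusted p = 0.946), the fall being smaller in fibrosarcoma. It was the 1 gene of 9 with an unadjusted p under 0.05, against 4.92% of all genes, and without uninjected side 976 it was 1.17.

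In muscle without a tumor the genes were quieter. Tolerant Spalax were compared with controls, to ask whether injected muscle that grew no tumor differs from untreated muscle. Limma called 0 of 9 genes and 0% of all 14020, none of the 9 had an unadjusted p under 0.05 (5.23% of all genes did), and edgeR and DESeq2 called 0 of 9, each with 1 gene, Cdkn2b, under an unadjusted 0.05. Cdkn2b came nearest, with 173, 97.4, 76.7 and 93.8 in tolerant animals 2251, 2261, 2218 and 2375 against 85.0, 62.0, 61.1 and 54.7 in controls. The groups overlapped in 1 value, and the difference was 0.69 (SE 0.32, limma adjusted p = 0.923).

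Tolerant animal 2251 set itself apart from the other 3. It held 198 of Ccnd1 against 6.70 to 35.0, 140.4 of Ccnd2 against 8.04 to 15.9, and 140.4 of Rbl1 against 19.8 to 46.0. Its Cdk6, at 23.3, was the highest of all Spalax muscle. The proliferation antigen gene Mki67 stood at 131 there, against 2.19 to 5.29 in the other tolerant animals, and its 8 fibroblast and 7 leukocyte markers summed to 222152 and 15013. Both sums were the highest of all Spalax muscle libraries, although Cd79a of the leukocyte list was the lowest there, at 19.5. Of the 6 proliferation markers, 5 were highest of all 12 Spalax muscle libraries in 2251 (Mki67, Top2a at 161, Ccnb1 at 24.0, Aurkb at 22.5 and Plk1 at 90.8). The other one, Cdk1, stood at 433 against 181 to 1481 in the other tolerant animals and carried the sum of all 6, which was 862 against 313 to 1628. Their part in the cyclin values was not tested.

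Uninjected muscle of tumor-bearing Spalax was compared with control muscle, the question being whether animals that grew tumors differ away from the tumor. Rb1 held 1934, 5034, 1720.3 and 1534 in animals 600, 976, 2240 and 2230, all above the 4 controls at 960.0 to 1283. The difference was 1.07 (SE 0.35, unadjusted p = 0.0119), but the limma adjusted p was 0.225, and without 976 it was 0.68. Limma and edgeR called 0 of 8 genes tested. DESeq2 called 1, Rb1 (adjusted p = 0.0453), against 3.74% of all genes. Limma called 0% of all 13909, and Rb1 was the 1 of 8 with an unadjusted p under 0.05, where 16.6% of all genes had one. Ccnd1 and Ccnd2 were lower by value, at 3.53 to 31.5 and 1.18 to 18.1 against 22.5 to 104 and 18.7 to 40.4, with differences of -1.44 (SE 0.73) and -1.36 (SE 0.70) that were not called (adjusted p = 0.344 and 0.353). Cdk6 was below the filter.

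Granuloma UIS 976 was the extreme library of that group. Besides Rb1 at 5034, it held the highest Spalax values of Cdkn1b (2425) and Rbl2 (1939.7), the lowest of Ccnd1 (3.53) and Ccnd2 (1.18), and 4011 of Cdkn1a, the p53-inducible CDK inhibitor gene, against 50.7 to 638 in the other 11 Spalax muscle libraries. Mdm2, another p53 target, stood at 13719.5 against 2567 to 4831. In all, 86 genes were at least 5 times above every other Spalax library there, a number that ranged from 0 to 73 in the other 15.

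Against tolerant muscle, the uninjected muscle of tumor-bearing Spalax gave 0 of 8 genes by limma, edgeR and DESeq2, and 1 gene, or 0.00713%, of all 14029 by limma. Rb1 again had the one unadjusted p under 0.05 (limma adjusted p = 0.880), where 5.12% of all genes had one. Its difference was 1.04 (SE 0.36), with tolerant animals at 954 to 1197. In mouse, uninjected sides against controls gave 0 of 9 by limma, edgeR and DESeq2 and 0% of all 14792. Cdkn2c was lower in uninjected sides (430.5 to 504) than in controls (588 to 1688) without overlap, with a difference of -1.13 (SE 0.39, unadjusted p = 0.0204, limma adjusted p = 0.441). It was the 1 of 9 with an unadjusted p under 0.05, against 11% of all genes. The mouse difference for Rb1 was 0.39 (SE 0.32, adjusted p = 0.617).

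Across the 12 Spalax muscle libraries some of the genes varied together. Pearson's r of log2(value + 1) was 0.93 between Ccnd1 and Ccnd2, 0.85 between Cdkn1b and Rb1, 0.81 between Cdkn1b and Rbl2, and -0.78 between Rb1 and Ccnd2. Granuloma UIS 976 lies at an end of each of these relations, and tolerant 2251 holds the highest Ccnd1 and Ccnd2. The values are a description only. Among 14435 genes the one most like Ccnd1 was Fyn (r = 0.98), followed by Thy1 (0.97). For Ccnd2 they were Ppp1r9b and Nde1 (both 0.97), for Rbl1 Ptk2b (0.98) and Tgfb1 (0.96), and for Cdk6 Sec61b (0.93) and Rpn2 (0.92). Cdk6 held only 2 to 31 reads in these libraries, so counting error limits its r. The nearest to Rb1 were Arhgap10 and Pcf11 (both 0.97), to Rbl2 Arid5b (0.99) and LOC103728159 (0.97), and to Cdkn1b Tmcc3 (0.97) and Ptprg (0.96). Lower likeness was found for Cdkn2b, with B3galnt1 (0.90) and Zmynd15 (0.89), and for Cdkn2c, with Ddt (0.92) and Kctd13 (0.90).

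Other genes of the pathway were read against the share of all genes called, which was 11.7% higher and 12.6% lower in granuloma, 17.4% and 19% in Spalax fibrosarcoma and 22.8% and 22.3% in mouse. The differences that follow are relative to a median of all genes near 0, a median that scaling to total reads moves to 0.72 in granuloma, 0.83 in Spalax fibrosarcoma and 1.16 in mouse. Of 16 partners in G1, 15 were tested in Spalax: 5 rose and 2 fell in granuloma, 7 rose and 2 fell in fibrosarcoma. In mouse 10 of 16 rose and 1 fell. The 2 of 15 that fell in Spalax are near the share of all genes in granuloma and below it in fibrosarcoma. Cdk4, the other kinase of the D cyclins, rose by 1.44 (SE 0.31) in granuloma, 2.03 (SE 0.24) in fibrosarcoma and 2.09 (SE 0.29) in mouse. The third D cyclin, Ccnd3, rose in Spalax fibrosarcoma (1.54, SE 0.26) and in mouse (1.89, SE 0.57), and in granuloma differed by 2.26 (SE 0.68, adjusted p = 0.0659, limma). Fbxo31, a ubiquitin ligase gene known for cyclin D1 turnover, fell in all of them, by 1.59, 1.21 and 4.21. The median of the list was 0.79, 1.96 and 1.87.

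The E2F family was uneven, while its S-phase targets rose widely. E2f1, an activator, rose by 4.69 (SE 0.62) in granuloma, 5.19 (SE 0.74) in Spalax fibrosarcoma and 4.30 (SE 0.75) in mouse. The atypical E2f7 rose by 3.05, 4.55 and 3.37, and in granuloma it reached the filter only through the tumors. The other activators did not follow in granuloma, with 0.27 (SE 0.71, adjusted p = 0.799, limma) for E2f2 and 0.05 (SE 0.50, adjusted p = 0.951) for E2f3. E2f6, a repressor, fell in granuloma (-2.57, SE 0.48) and in mouse (-2.72, SE 0.28). E2f4, a common partner of Rbl1 and Rbl2, was not called, with -0.12, 0.49 and 0.37. In all, 2 of 9 E2F and DP genes rose and 1 fell in granuloma, 3 rose in fibrosarcoma, and 5 of 10 rose and 1 fell in mouse. The granuloma count is near the share of all genes given above. Of 20 E2F target genes of S phase, 10 rose in granuloma, 20 in Spalax fibrosarcoma and 19 in mouse, and none fell. Rrm2, a ribonucleotide reductase subunit gene, rose by 4.91, 7.29 and 4.07, and the helicase gene Mcm2 by 3.73, 4.72 and 3.03. The target median was 2.32, 3.60 and 3.08. Of the 20, 2 in granuloma, 4 in Spalax fibrosarcoma and 3 in mouse reached the filter only through the tumors. Between the tumors themselves all 20 targets were higher in fibrosarcoma than in granuloma, with a median of 1.02 beside 0.03 over all genes, and 14 had an unadjusted p under 0.05, where 4.06% of all genes did. Among these Cdc6 differed by 1.66 (SE 0.34) and Mcm2 by 1.22 (SE 0.29). None was called after adjustment, and genes of S phase are not independent of each other. The interaction of side and tumor type was above 0 for all 20, with 6 at an unadjusted p under 0.05 and none called. The 6 proliferation markers, of which Cdk1 is also a target listed here, summed to 12892 and 13696 in the fibrosarcomas against 5658 and 7379 in the granulomas.

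**Figure D5:**
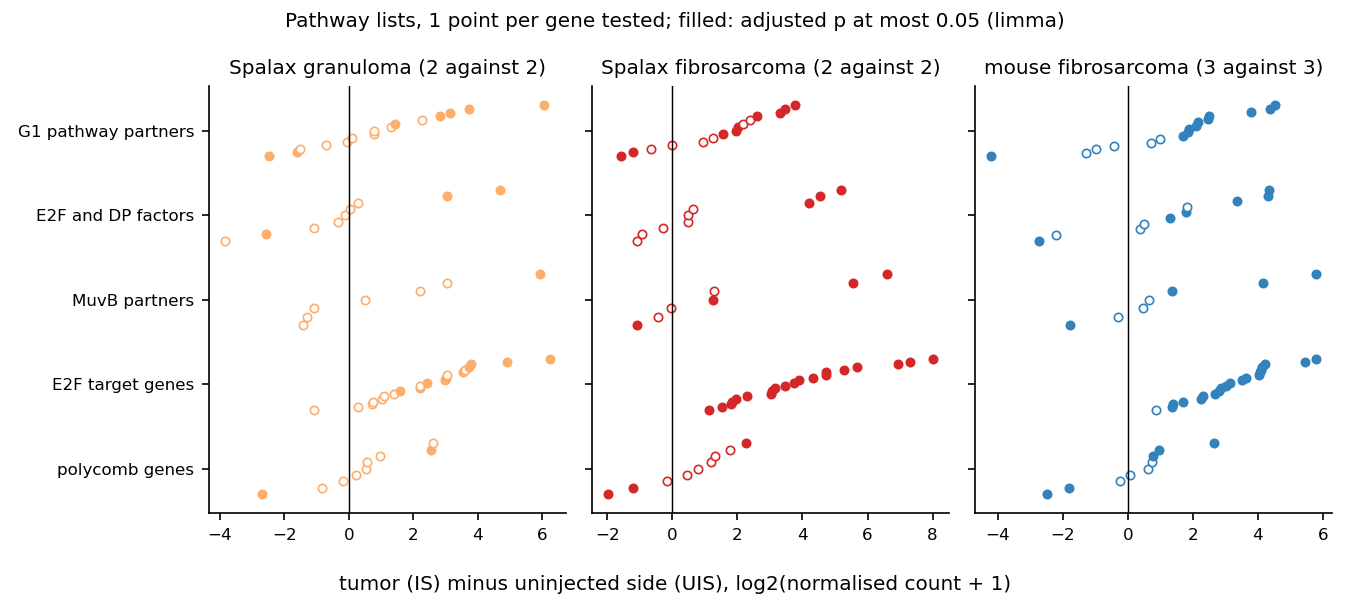
Difference of tumor (IS) minus uninjected side (UIS) in log2(normalised count + 1), 1 point per gene tested in 5 lists, for Spalax granuloma, Spalax fibrosarcoma and mouse fibrosarcoma. Filled points have a limma adjusted p of at most 0.05. All 20 E2F target genes are filled and right of 0 in Spalax fibrosarcoma, against 10 filled in granuloma.

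Of the 7 MuvB partners, which join Rbl1 or Rbl2 in quiescence and Mybl2 or Foxm1 in proliferation, Mybl2 rose in each tumor group (5.92, 6.60 and 4.14). Foxm1 rose in Spalax fibrosarcoma (5.57, SE 0.49) and mouse (5.78, SE 1.12), and differed by 3.06 (SE 0.97, adjusted p = 0.0733, limma) in granuloma. Mybl2 in granuloma and Foxm1 in mouse reached the filter only through the tumors. Lin52 fell in fibrosarcoma of Spalax (-1.08) and of mouse (-1.78). In all 1, 3 and 3 of the 7 rose and 0, 1 and 1 fell in granuloma, Spalax fibrosarcoma and mouse, and the single genes are near the shares of all genes. Of 9 polycomb genes, whose complexes are known to bind the Ink4 locus, 1, 1 and 3 rose and 1, 2 and 2 fell, close to the shares of all genes, so the list as a whole did not stand out. Ezh2, the methyltransferase of the complex, rose by 2.54 (SE 0.44), 2.27 (SE 0.56) and 2.66 (SE 0.35), and Cbx7 fell by 2.70 (SE 0.37), 1.98 (SE 0.40) and 2.49 (SE 0.38).

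Mtap, which lies next to the Ink4 genes on mouse chromosome 4 and is often lost together with them in human tumors, was present and higher in all tumors. It held 1614 and 1796 in the granulomas, 1496 and 1525 in the Spalax fibrosarcomas and 1757, 2205 and 2453 in mouse tumors. Spalax muscle held 293 to 505 and mouse muscle 451 to 724. The differences were 2.30 (SE 0.36), 1.75 (SE 0.22) and 1.75 (SE 0.23), with limma adjusted p of 0.0147, 0.00822 and 0.00291. Of the other neighbours followed, Dmrta1 held 47.9 and 52.6 in the granulomas against 2.41 and 0 in the uninjected sides, and 22.2, 163 and 16.3 in mouse tumors against at most 1.21, so it reached the filter only through the tumors. Elavl2 did so in mouse, with 18.4 to 25.8 against at most 4.84. Mllt3 fell in mouse (-3.30, SE 0.33) and was not called in Spalax (1.22 and -0.61).

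In mouse the other genes lie, in GRCm38, on chromosome 4 (Cdkn2c, 109660876 to 109667189), chromosome 6 (Ccnd2, 127125162 to 127152193, and Cdkn1b, 134920401 to 134925513), chromosome 7 (Ccnd1, 144929931 to 144939925), chromosome 14 (Rb1, 73183673 to 73325822), chromosome 2 (Rbl1, 157145893 to 157204534) and chromosome 8 (Rbl2, 91070057 to 91123844). Cdkn2a, Cdkn2b, Cdkn2c, Cdkn1b and Rbl1 share no exonic base with another gene. Rb1 shares 896 bases, Rbl2 1585 and Cdk6 368 with genes of the opposite strand, and reads there may be uncertain since the strand setting is unknown.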

How the data were processed

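RNA-seq was single-end and strand-specific. The authors trimmed reads, aligned them with TopHat2 (the submitters' notes name TopHat 1.4.1) to the published Spalax genome or a mouse genome (GRCm38 in the notes), counted reads per gene with htseq-count and deposited a signal per gene and library, namely counts divided by 1 size factor per library, with no coordinates. The strand setting is not given in the sources used here. Values were read from the line end in Spalax, and a comma in 2387 gene names was read as t.

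In all 25 libraries 100% of values were whole multiples of 1 read (tolerance 0.02), so whole reads were recovered. Depth is given in the report, and a value of 10 rests on 6.95 to 19.3 reads. Counting error is all that depth covers, since reads carry no molecular identifiers. Groups were compared with limma (version 3.58.1, R 4.3.3; eBayes with trend) on log2(value + 1), with a filter at 10 and Benjamini-Hochberg adjustment, over 11 comparisons of the groups in the labels. EdgeR 4.0.16 and DESeq2 1.42.0 on whole reads, a pseudocount of 0.1, no filter, scaling to total reads, 1 model per species, the animal as a block, and leaving out each library were alternatives. The scripts were tested on simulated data. Genes, lists, markers and tests were chosen with earlier results of these data known. Named are all 10 genes and 2 to 4 genes per list, plus, per gene, the 2 genes with the highest r over Spalax muscle. Genes around Cdk6 and Met, the values of Cdkn1a, Mdm2 and Mki67 in single libraries, and those of Pax7, Myod1 and Myf5 were picked after values were seen.

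IS and UIS libraries with one number come from the same animal, so the numbers pair them. Deviations from the group means correlated at 0.0092 (granuloma), -0.0019 (fibrosarcoma) and 0.0469 to 0.178 (mouse). Replicates are different animals. Mouse positions and exon lengths are from GENCODE vM21, whose gene models may differ from those the authors used. No Spalax annotation was used here.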

Additional observations from a re-analysis of the deposited data

Results flagged for a closer look

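Tolerant animal 2251 was far above the other 3 of its group in Ccnd1 (198, next highest 35.0) and in Ccnd2 (140.4, next highest 15.9). Its gap to the nearest was 0.852 and 0.941 of the group's range, above Dixon's 95% critical value for 4 samples. The gaps were taken on normalised counts. On log2(value + 1), the scale of the tests, each gap is a smaller share of the range, so the flags depend on the scale. The flags were 2 of 18 groups of 4 examined, where chance flags about 1 in 20 if values are normally distributed. Both flags come from the same library, and Ccnd1 and Ccnd2 varied together over Spalax muscle (r = 0.93). They are therefore not independent, and their number cannot be set against that rate. The IS against UIS difference of Cdkn2c was larger in Spalax than in mouse fibrosarcoma by 2.87 (limma adjusted p = 0.0341 for the interaction), higher in tumor than uninjected side in 2 of 2 Spalax and 3 of 3 mice.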

How the results depend on the processing

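With 2 libraries a side, leaving out 1 decided the number of the genes called: it ranged from 0 to 6 in granuloma, 0 to 9 in Spalax fibrosarcoma, 5 to 8 in mouse and 0 to 1 in the species interaction, but was 7 throughout with Spalax tumors pooled. A lone library left in a group is assumed to vary like the others. DESeq2 called 1 gene between uninjected sides and controls of Spalax (3.74% of all genes) and 3 in the species interaction (15.4% of all genes). In Spalax fibrosarcoma it called 7, with the share of all genes not given here. It gave no adjusted p for Cdk6 in the pooled tumors. With the animal as a block (paired fit) the species interaction called 0. In these paired fits Ccnd2 in Spalax fibrosarcoma was gained, and Cdkn2c in mouse and in the species interaction was lost. The block changed no other call. Scaling to total reads moved the median of all genes to 0.72 in granuloma, 0.83 in Spalax fibrosarcoma, 0.77 pooled and 1.16 in mouse. Under it the sign of genes that had not been called turned for Cdkn1b (0.57 in Spalax fibrosarcoma, 0.21 pooled, 1.01 in mouse), Rbl2 (0.51 and 0.14 in Spalax) and Rb1 in mouse (0.34). Leaving out 1 library turned Cdkn1b (-0.68 to 0.21 in Spalax fibrosarcoma, -0.23 to 0.26 in mouse, -0.62 to 0.27 in the interaction), Rbl2 (-0.84 to 0.25 in Spalax fibrosarcoma), and Ccnd2 (-1.45 to 2.02) and Cdk6 (-2.10 to 6.43) in the interaction. No called value changed sign. Of 331 single-gene values under other settings 298 kept direction and side of the threshold, as did 257 of 316 with 1 library left out. The causes were not tested. Counting error limits Cdk6 in Spalax muscle (2.68 to 23.3), the lowest Spalax muscle values of Ccnd1 and Ccnd2, and Cdkn2a in mouse controls.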

Other observations

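The fibrosarcoma of Spalax 2240 held a further run of high genes besides that at Cdk6. Met, the receptor gene for hepatocyte growth factor, stood at 56798 against at most 678 in the other 15 Spalax libraries. Of 10 genes within 1 Mb of Met on mouse chromosome 6 that the Spalax table lists, 7 were at least 5 times above every other library, among them Tes (56853 against at most 1699), Cav1, the caveolin gene (116474 against at most 3406), and Capza2 (190586 against at most 10386). Tfec and Wnt2 in the same window, at 153 and 114, lay inside the range of the others. In the fibrosarcoma of 2230 Met stood at 375 and in the uninjected side of 2240 at 430.4. These genes were picked after their values were seen, DNA copy number was not measured, and their order in Spalax was not checked.

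The tumor of mouse 512 held myogenic genes that the other mouse tumors lacked: Pax7 at 1755 against 0 and 0.593, Myod1 at 2831 against 0.517 and 6.52, and Myf5 at 888 against 3.62 and 1.19. It also held 3123 of Ccnd3, against 961 and 874. Its Rb1, at 1381, was the highest of the mouse tumors, the others holding 598 and 442. No test was made of 1 tumor against 2.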
